A study of Homo sapiens with 8 samples.

Results

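ATF4, DDIT3, ATF3, TRIB3, PPP1R15A and CHAC1 are regulators, feedback genes and an effector of the integrated stress response, measured here in HL60 cells treated with VC and DZNep. They were chosen by gene name from a normalized expression table, with earlier results of these data known. Shares of all genes set beside them below are therefore a description. All 6 of 6 were found among the 9543 genes of the table. HL60 is an established human acute myeloid leukaemia line that grows in suspension. Cells were kept for 72 h with VC plus DZNep, with DZNep, with VC or with phosphate-buffered saline (PBS), and total RNA gave 2 libraries for each of these 4 treatments (8 libraries). VC stands for vitamin C, and the series title concerns how it changes the action of DZNep on acute myeloid leukaemia. DZNep is a nucleoside analogue that inhibits S-adenosylhomocysteine hydrolase and so disturbs cellular methylation. Doses are not given in the sources used here. The labels also do not say if paired libraries are separate cultures, so each p value reflects only how far these libraries scatter, which may be technical. Columns headed control in the table were read as PBS, because no other group in the labels lacks a drug.

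The integrated stress response begins when kinases that sense amino-acid shortage, haem shortage, double-stranded RNA or unfolded protein phosphorylate the translation factor eIF2 on its alpha subunit. Translation then slows in general, while that of the ATF4 message increases. ATF4 is a basic leucine zipper transcription factor that binds, with partners of the C/EBP family, to composite elements in genes for amino-acid supply, and it also induces the other 5 genes described here. DDIT3 and ATF3 are further transcription factors, TRIB3 and PPP1R15A feed back on the response, and CHAC1 degrades glutathione. Leukaemia cells are known to depend on this response under nutrient stress. Because ATF4 is controlled largely at translation, its mRNA is a limited readout of its activity.

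Values are normalized units on a scale that is the same in all 8 libraries, from 2 to 10345 with a median of 88, and each library totals 1988507. Read depth is therefore unknown, no counting interval is given, and levels are compared between libraries, never between genes. Of the 9543 genes, 9513 had a mean of at least 10 over the 8 libraries and were tested, the 6 members among them. The labelled cell type was checked against marker genes: 7 of 10 myeloid markers were in the table, and MPO, the myeloperoxidase gene of promyelocytes, was at 2726 to 3652 units in every library. The summed myeloid markers were 5305 to 5342 units with VC plus DZNep, 5318 to 5426 with DZNep, 4812 to 5408 with VC and 4428 to 5373 with PBS. That sum is mostly MPO, and some other myeloid markers differed between treatments in their values. The granule protease gene CTSG was at 8 and 7 units with VC plus DZNep, 10 and 14 with DZNep, 42 and 43 with VC, and 30 and 27 with PBS. The granulocyte growth factor receptor gene CSF3R was at 150 and 150, 220 and 201, 380 and 380, and 436 and 394 units, and the lysozyme gene LYZ at 116 and 108, 84 and 78, 48 and 54, and 26 and 33 units, in the same order of groups. The surface marker gene CD33 was at 362 and 370, 318 and 326, 263 and 292, and 274 and 282 units. The transcription factor gene SPI1 was at 741 and 765, 844 and 741, 686 and 707, and 652 and 670 units. CTSG and CSF3R were thus lower, as the members were, in every library with DZNep than in any without it, which was true of 12.9% of genes. LYZ, CD33 and SPI1 were higher in every library with DZNep than in any without it, and the share of all genes for that direction was not counted. The transcription factor gene CEBPE was at 276 and 290, 298 and 306, 279 and 280, and 303 and 296 units. Its libraries with DZNep overlapped those without it. Of 8 lymphoid markers, 2 were in the table (CD2 and CD79A), with sums of 38 to 48 units with VC plus DZNep, 28 to 36 with DZNep, 16 to 19 with VC and 14 to 15 with PBS. The 1 of 8 erythroid and megakaryocyte markers was ITGA2B, at 394 to 413, 620 to 718, 380 to 380 and 374 to 450 units in the same order of groups, and the 1 of 9 adherent-cell markers was PECAM1, at 55 to 56, 37 to 40, 30 to 34 and 26 to 33 units. No marker was at 0, since the lowest value of the table is 2, and the part of such cells in the results below was not tested. In bulk RNA, fewer cells of a type and less RNA per cell cannot be told apart.

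Since ATF4 acts through short promoter elements, the members' promoters were searched for a pair of motifs. One was TGATGNAA, the core of the C/EBP-ATF response element, and the other was TGACGTCA, the cAMP response element, each on both strands in windows of 300 bases, 250 before and 50 after each RefSeq transcription start (build GRCh38.p14). The first was found for 2 of 6 members, ATF3 and CHAC1, and for 6 of 65 genes of the pathway lists used below, against 4.46% of the 27305 genes with a window. The second was found for 1 of 6 members, PPP1R15A, against 2.25% of genes, and the motifs did not overlap in any member. The 250 bases before the start are shown for these 3 members because they hold the matches, which stand in capitals, on the plus strand of chr15:40953221-40953470 for CHAC1, chr1:212565157-212565406 for ATF3 and chr19:48872171-48872420 for PPP1R15A.
CHAC1: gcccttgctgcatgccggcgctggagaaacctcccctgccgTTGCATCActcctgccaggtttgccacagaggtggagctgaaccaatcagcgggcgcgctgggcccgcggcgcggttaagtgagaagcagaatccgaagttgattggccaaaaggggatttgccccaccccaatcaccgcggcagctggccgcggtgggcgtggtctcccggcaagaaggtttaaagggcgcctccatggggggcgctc
ATF3: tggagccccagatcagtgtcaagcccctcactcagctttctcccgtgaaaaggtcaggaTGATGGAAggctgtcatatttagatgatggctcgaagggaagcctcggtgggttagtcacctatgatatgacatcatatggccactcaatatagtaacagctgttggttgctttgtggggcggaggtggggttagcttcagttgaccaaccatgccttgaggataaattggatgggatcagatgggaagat
PPP1R15A: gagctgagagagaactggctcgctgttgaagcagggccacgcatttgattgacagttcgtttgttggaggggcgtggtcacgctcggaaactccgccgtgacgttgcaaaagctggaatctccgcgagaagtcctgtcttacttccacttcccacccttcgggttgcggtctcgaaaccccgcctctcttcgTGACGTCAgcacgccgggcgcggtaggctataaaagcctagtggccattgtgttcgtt
The CHAC1 match begins 209 bases before the start and lies on the reverse strand, so that it reads TTGCATCA as printed. That of ATF3 begins 191 bases before the first of the gene's 2 annotated starts, and that of PPP1R15A, a palindrome, 58 bases before its start. Windows of ATF4, DDIT3 and TRIB3 did not hold these letters, which says nothing of sites outside the windows.

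**Figure D1:**
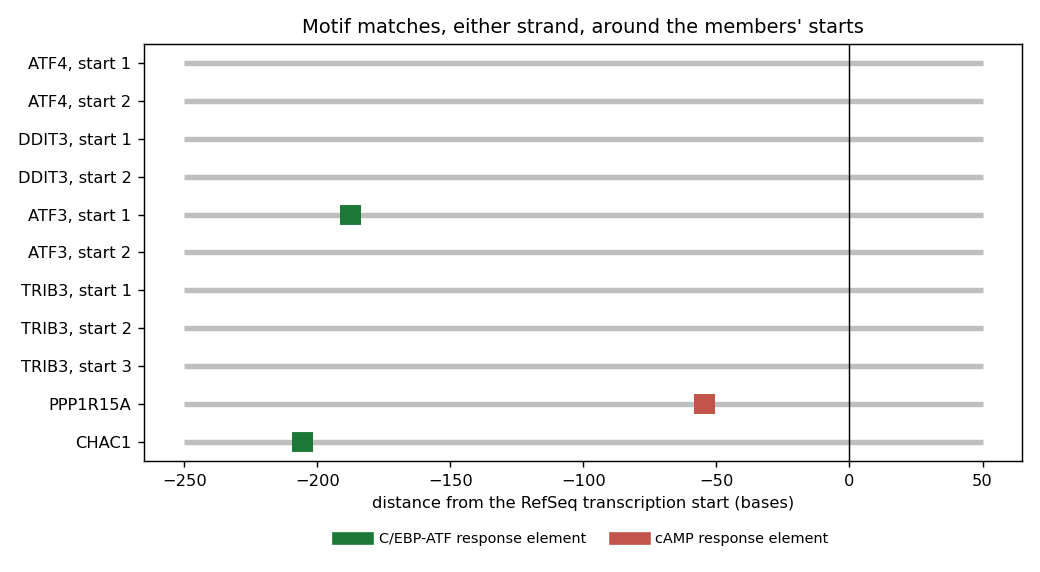
Motif matches in the 300 bases around each RefSeq transcription start of the 6 members, with distance from the start in bases on the horizontal axis and 1 grey line per start. Green blocks mark TGATGNAA, 209 bases before the CHAC1 start and 191 before the first ATF3 start, and the red block marks TGACGTCA, 58 bases before the PPP1R15A start.

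All 6 members were lower in every library with DZNep than in any library without it. That is, the 4 libraries with VC plus DZNep or DZNep lay below the 4 with VC or PBS for 6 of 6 members, which was true of 12.9% of the genes tested. In pairs of groups, both libraries lay below both for 6 of 6 members with DZNep against PBS (25.4% of genes), with VC plus DZNep against PBS (27.1%) and with VC plus DZNep against VC (28%), and for 0 of 6 with VC against PBS (15.2%). The largest decreases were those of CHAC1, the enzyme gene, and the smallest those of ATF4 and PPP1R15A. VC by itself left every member's range overlapping that of PBS.

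**Figure D2:**
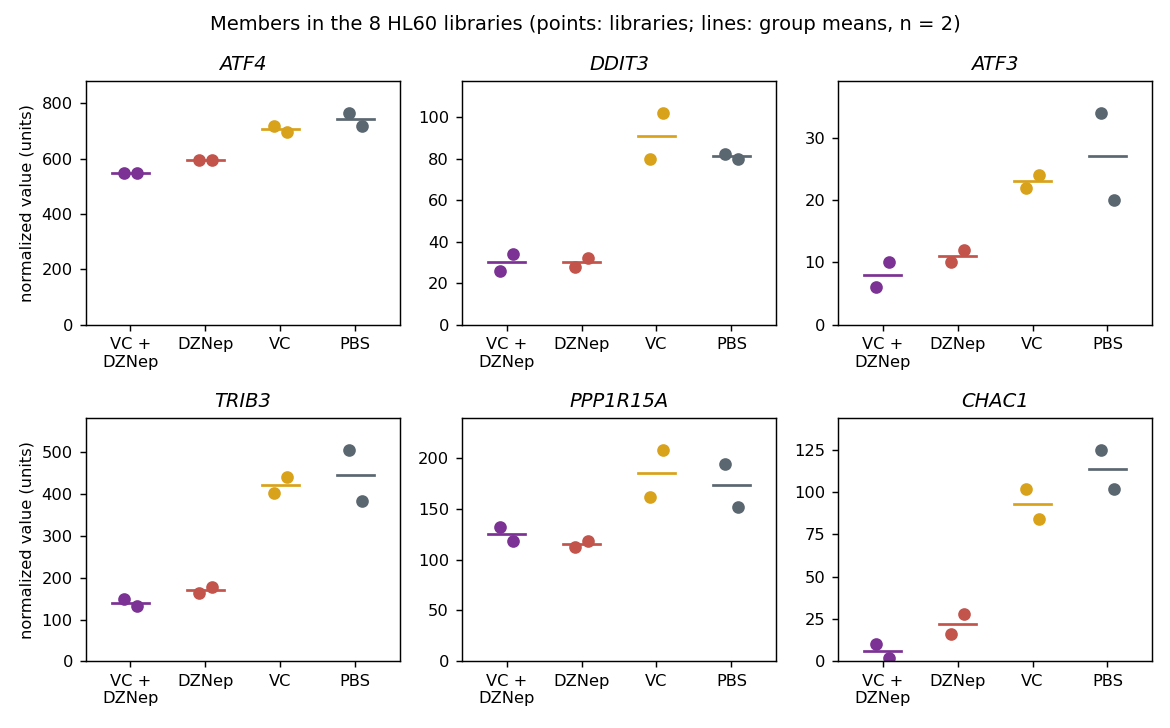
Normalized values in units (vertical axes, each starting at 0 and scaled to its gene) of the 6 members in the 8 HL60 libraries, by treatment group. Points are libraries and lines are means of n = 2. CHAC1 lies at 2 to 28 units in the libraries with DZNep and at 84 to 125 units in those without.

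ATF4 (ENSG00000128272, chr22:39519695-39522685, plus strand on GRCh38), the transcription factor at the centre of the response, was at 549 and 549 units with VC plus DZNep, 596 and 596 with DZNep, 718 and 698 with VC, and 766 and 718 with PBS. The order of the groups was thus VC plus DZNep lowest, then DZNep, VC and PBS, and the ranges of VC and PBS touched at 718. On the shared scale, 10 genes in each library have the value 596, and the neighbouring values are 583 and 609. The value 549 is shared by 4 genes, and its neighbours are 548 and 560. Whether the equal values within a group come from these steps was not tested. They enter the SE of 0.0807 given below, which was 0.103 with robust empirical Bayes. Against PBS, ATF4 fell 1.24-fold with DZNep (log2 fold change -0.31 ± 0.0807 SE, limma adjusted p = 0.0294) and 1.35-fold with VC plus DZNep (-0.43 ± 0.0807, 0.00471). Against VC it fell 1.29-fold with VC plus DZNep (-0.37 ± 0.0807, 0.0133). The decrease with DZNep did not pass without PBS replicate 1 (limma adjusted p = 0.103), DZNep replicate 1 or 2 (0.0977 and 0.106), VC replicate 1 or 2 (0.0572 and 0.057), and that against VC did not without VC replicate 1 or 2 (0.106 and 0.0727) or VC plus DZNep replicate 1 or 2 (0.0512 and 0.0574). It was also not called with DZNep in the 4 libraries alone (0.0882), without the intensity trend (0.111) or with robust empirical Bayes (0.053), nor against VC without the trend (0.0715). GENCODE 29 names 4 ATF4 pseudogenes, and how reads shared with them were counted is not given in the sources used here.

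DDIT3 (ENSG00000175197, chr12:57516588-57521737, minus strand) encodes CHOP, a C/EBP family factor that promotes cell death when stress persists. It was at 26 and 34 units with VC plus DZNep, 28 and 32 with DZNep, 80 and 102 with VC, and 82 and 80 with PBS. The DZNep libraries lay inside the range of those with VC plus DZNep, and the PBS libraries inside that of VC, so the 4 groups formed 2 levels. DDIT3 fell 2.65-fold with DZNep against PBS (log2 fold change -1.41 ± 0.199, limma adjusted p = 0.00188), 2.67-fold with VC plus DZNep against PBS (-1.42 ± 0.199, 0.000915) and 2.97-fold with VC plus DZNep against VC (-1.57 ± 0.199, 0.000715). These calls held in all 18 alternatives run for each comparison.

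In GENCODE 29, DDIT3 overlaps the protein-coding gene AC022506.1 by 2769 bases and the microRNA gene MIR616 by 97 bases on its own strand. On the opposite strand it overlaps the protein-coding genes MARS by 982 bases and MBD6 by 1028 bases. Use of strand in counting is not given in the sources used here, and AC022506.1 and MIR616 are not among the genes of the expression table. MARS, the methionyl-tRNA synthetase gene, was at 334 and 374 units with VC plus DZNep, 784 and 773 with DZNep, 1032 and 1172 with VC, and 1376 and 1122 with PBS. Like DDIT3, MARS was called lower with DZNep against PBS (-0.67 ± 0.113, limma adjusted p = 0.00407). With VC plus DZNep it was also called lower against PBS (-1.81 ± 0.113, 4.88e-06) and against VC (-1.63 ± 0.113, 1.3e-05). Unlike DDIT3 in its values, MARS fell further when VC was added to DZNep (-1.14 ± 0.113, limma adjusted p = 0.00192). The 2 genes' responses were not tested against each other. MBD6, a methyl-CpG-binding domain gene, gave -0.14 ± 0.161 with DZNep against PBS (limma adjusted p = 0.625). With VC plus DZNep it gave -0.31 ± 0.161 against PBS (0.206) and -0.44 ± 0.161 against VC (0.0947), neither past the threshold. Any share of reads from these overlapping genes in the DDIT3 value was not tested.

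ATF3 (ENSG00000162772, chr1:212565334-212620777, plus strand), a stress-induced factor that represses many of its targets, was measured low on the scale of the table. It was at 6 and 10 units with VC plus DZNep, 10 and 12 with DZNep, 22 and 24 with VC, and 34 and 20 with PBS. VC plus DZNep and DZNep shared the value 10, and the VC libraries lay inside the PBS range. ATF3 fell 3.09-fold with VC plus DZNep against PBS (log2 fold change -1.63 ± 0.368, limma adjusted p = 0.0124) and 2.73-fold against VC (-1.45 ± 0.368, 0.0249). With DZNep against PBS the difference was -1.18 ± 0.368 (limma adjusted p = 0.0598), which did not pass, although both DZNep libraries lay below both PBS libraries. That comparison passed with robust empirical Bayes (0.0443) and with values under 10 set to 10 (0.0256). The decrease against PBS was not called without PBS replicate 1 (0.091) or VC plus DZNep replicate 1 (0.0809) or in the 4 libraries alone (0.0669), and that against VC was not called without VC replicate 1 or 2 (0.115 and 0.136) or VC plus DZNep replicate 1 (0.134) or in the 4 libraries alone (0.0542).

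TRIB3 (ENSG00000101255, chr20:362835-397559, plus strand) encodes a pseudokinase that binds ATF4 and CHOP and restrains them. It was at 148 and 132 units with VC plus DZNep, 164 and 177 with DZNep, 402 and 440 with VC, and 506 and 383 with PBS. The VC libraries lay inside the PBS range, and VC plus DZNep lay below DZNep in both libraries. TRIB3 fell 2.57-fold with DZNep against PBS (log2 fold change -1.36 ± 0.138, limma adjusted p = 0.000363), 3.13-fold with VC plus DZNep against PBS (-1.65 ± 0.138, 3.63e-05) and 2.99-fold against VC (-1.58 ± 0.138, 6.23e-05). It was called in all 18 alternatives of each of these comparisons.

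PPP1R15A (ENSG00000087074, chr19:48872392-48876057, plus strand) encodes GADD34, which directs protein phosphatase to eIF2 and so ends the response. It was at 132 and 118 units with VC plus DZNep, 112 and 118 with DZNep, 161 and 208 with VC, and 194 and 152 with PBS. The groups with DZNep shared the value 118, and VC and PBS overlapped. PPP1R15A fell 1.49-fold with DZNep against PBS (log2 fold change -0.57 ± 0.16, limma adjusted p = 0.0408) and 1.46-fold with VC plus DZNep against VC (-0.55 ± 0.16, 0.044). With VC plus DZNep against PBS it gave -0.46 ± 0.16 (limma adjusted p = 0.0701), which did not pass; it passed without PBS replicate 2 (0.0466) and with robust empirical Bayes (0.0457). The decrease with DZNep was not called without PBS replicate 1 (0.199), DZNep replicate 1 or 2 (0.174 and 0.14) or VC plus DZNep replicate 1 or 2 (0.0645 and 0.0637), without the trend (0.0937) or in the 4 libraries alone (0.102). That against VC was not called without DZNep replicate 1 or 2 (0.0757 and 0.0756), VC replicate 1 or 2 (0.0546 and 0.296) or VC plus DZNep replicate 1 or 2 (0.102 and 0.224), without the trend (0.0962) or in the 4 libraries alone (0.0873).

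CHAC1 (ENSG00000128965, chr15:40952962-40956519, plus strand) encodes a gamma-glutamylcyclotransferase that breaks down glutathione in the cytosol. It was at 10 and 2 units with VC plus DZNep, 16 and 28 with DZNep, 102 and 84 with VC, and 125 and 102 with PBS. VC plus DZNep lay below DZNep in both libraries, DZNep lay below VC, and VC and PBS shared the value 102. CHAC1 fell 5.13-fold with DZNep against PBS (log2 fold change -2.36 ± 0.492, limma adjusted p = 0.0121), 19.8-fold with VC plus DZNep against PBS (-4.31 ± 0.492, 0.000284) and 16.3-fold against VC (-4.03 ± 0.492, 0.00058).

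The size of the CHAC1 decrease with VC plus DZNep rests on the low end of the scale. The value 2 in replicate 2 is the lowest of the table, 10 genes share it in each library, and the next value is 4, a step of 0.737 on the log2(value + 1) scale. With values under 10 set to 10, an alternative chosen after seeing the data, the log2 fold changes were -3.37 against PBS (limma adjusted p = 3.63e-05) and -3.09 against VC (8.14e-05). Without VC plus DZNep replicate 1 the log2 fold changes were -5.25 against PBS and -4.96 against VC, and without its replicate 2 they were -3.37 and -3.09. On the log2(value + 5) scale they were -3.52 and -3.25. The decrease with DZNep against PBS was not called when PBS replicate 1 or 2 was left out (0.0766 and 0.0515), when DZNep replicate 1 or 2 was left out (0.115 and 0.0541) or without the trend (0.0536), over alternatives from 0.000641 to 0.115.

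The DZNep effect could be read in separate pairs of groups, since DZNep against PBS and VC plus DZNep against VC share no library, although one estimate of the spread served both. With DZNep against PBS, 5 of 6 members passed the limma threshold (adjusted p under 0.05 over all genes), all lower, against 6.63% of the genes tested called lower and 13.1% called in either direction. The members' median log2 fold change was -1.27 and that of all genes 0.01. With VC plus DZNep against VC, 6 of 6 were called lower, against 8.14% of genes called lower and 15% called in either direction (medians -1.51 and 0.01). Of 6 members, 5 were called lower in both, against 4.16% of genes, and the exception was ATF3. VC plus DZNep against PBS, which shares its PBS libraries with the first of these comparisons, gave 5 of 6 called lower, against 10.2% of genes called lower and 19.7% called in either direction (medians -1.52 and 0.01), with PPP1R15A the exception. The member count with DZNep against PBS was 2 without PBS replicate 1, 2 without DZNep replicate 1 or 2 and 4 without any other library, and with VC plus DZNep against VC it was 3 without VC replicate 1 or 2 or VC plus DZNep replicate 1 and 4 to 6 without any other library.

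**Figure D3:**
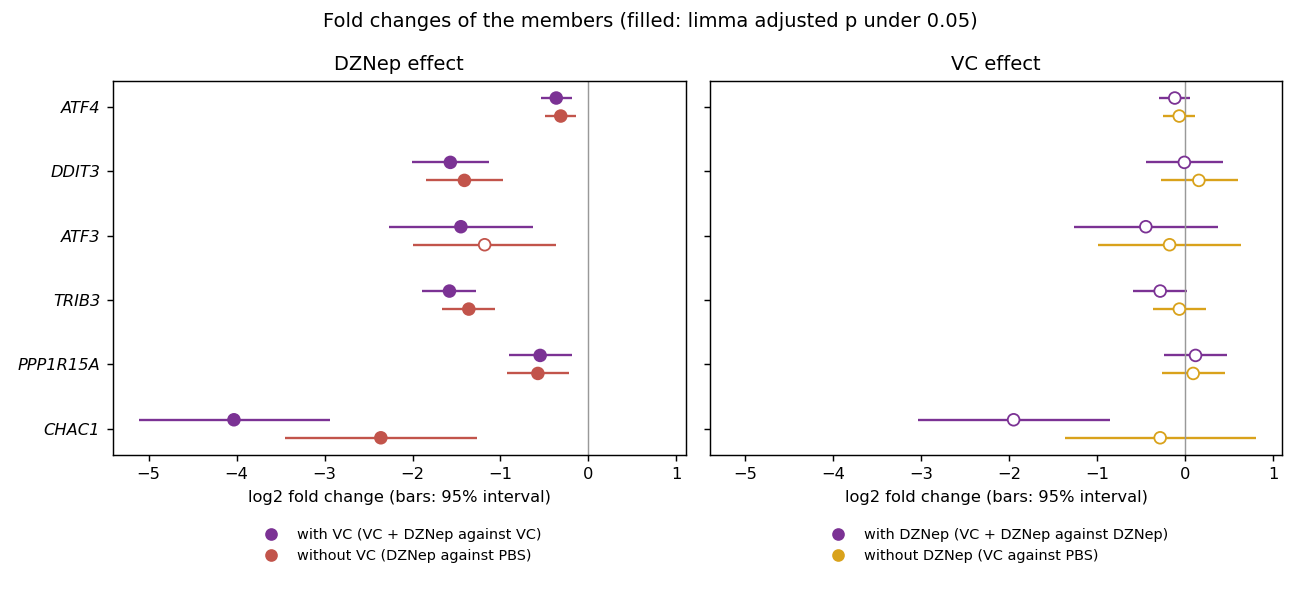
Log2 fold changes of the 6 members (horizontal axis) for the DZNep effect, left, and the VC effect, right, with 95% intervals from limma and filled points for an adjusted p under 0.05. All DZNep effects lie below 0, from -4.03 for CHAC1 to -0.31 for ATF4, and no point of the VC effect is filled.

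Adding VC to DZNep was compared with DZNep alone, the question closest to the series title. CHAC1 had the largest difference, at 6 ± 5.66 units with VC plus DZNep and 22 ± 8.49 units with DZNep (SD, n = 2), a log2 fold change of -1.95 ± 0.492 with a 95% interval from -3.04 to -0.86. It did not pass (limma adjusted p = 0.113). In all, 0 of 6 members were called by limma, 1 had an unadjusted p under 0.05, and 0.41% of genes were called lower and 0.673% in either direction. Both libraries with VC plus DZNep lay below both with DZNep for 3 of 6 members, ATF4, TRIB3 and CHAC1, against 20.4% of genes.

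For CHAC1 the result depended on the spread and on the low values. It was called with robust empirical Bayes (0.0412) and without VC plus DZNep replicate 1 (0.021), over alternatives from 0.021 to 0.434, and its log2 fold change was -1.01 (limma adjusted p = 0.125) with values under 10 set to 10. DDIT3 averaged 30 ± 5.66 units with VC plus DZNep and 30 ± 2.83 units with DZNep, and the interval of its log2 difference ran from -0.45 to 0.43. The differences of the others were -0.28 ± 0.138 for TRIB3 (interval -0.59 to 0.02), -0.12 ± 0.0807 for ATF4 (-0.30 to 0.06), -0.45 ± 0.368 for ATF3 (-1.26 to 0.37) and 0.12 ± 0.16 for PPP1R15A (-0.24 to 0.47). The sign of DDIT3 changed without DZNep replicate 2 (0.08) or VC plus DZNep replicate 1 (0.18).

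VC alone against PBS gave no call among the members. Limma called 0 of 6, none had an unadjusted p under 0.05 and 0% of genes were called, with 462 of 9513 at an unadjusted p under 0.05. CHAC1 was at 93 ± 12.7 units with VC and 113.5 ± 16.3 units with PBS, a log2 fold change of -0.28 ± 0.492 with an interval from -1.37 to 0.81. The intervals were -0.25 to 0.11 for ATF4, -0.37 to 0.24 for TRIB3, -0.28 to 0.60 for DDIT3, -0.26 to 0.45 for PPP1R15A and -0.99 to 0.64 for ATF3.

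The interaction asks whether the VC effect with DZNep differed from that without it, that is, whether the combination departed from the sum of both drugs on the log2 scale. For CHAC1 the combination gave -4.31 and the sum -2.64, a difference of -1.67 ± 0.695 (limma adjusted p = 0.629, interval -3.21 to -0.13). That difference was -0.73 (adjusted p = 0.68) with values under 10 set to 10. The estimated sums and combinations were closer for the other members, with differences from -0.27 ± 0.521 for ATF3 to 0.03 ± 0.227 for PPP1R15A. The intervals of these differences were -1.42 to 0.88 for ATF3, -0.79 to 0.46 for DDIT3 and -0.65 to 0.21 for TRIB3. They were -0.48 to 0.53 for PPP1R15A and -0.30 to 0.20 for ATF4. Intervals of this width do not show that the effects add. Limma called 0 of 6 members, 1 had an unadjusted p under 0.05, and 0.021% of genes were called.

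**Figure D4:**
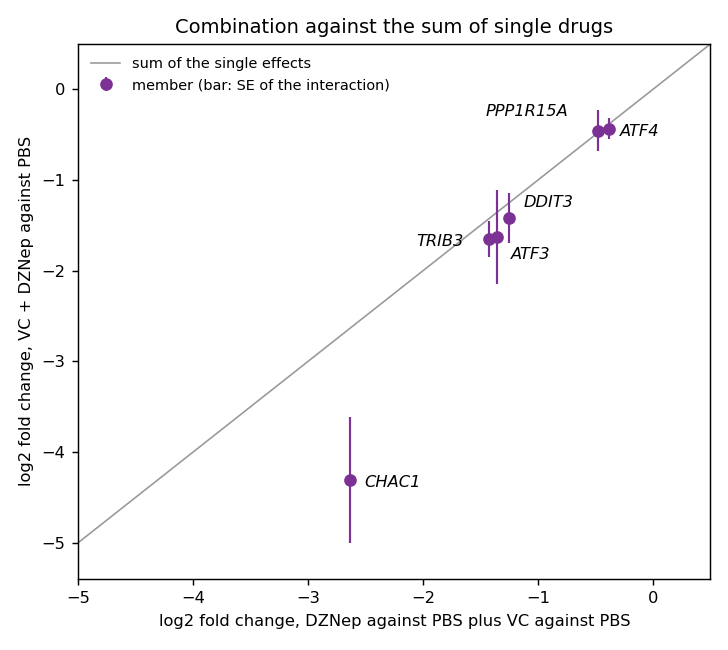
Log2 fold change of each member with VC plus DZNep against PBS (vertical axis) beside the sum of those for DZNep and for VC against PBS (horizontal axis), with bars of 1 SE of the interaction and a line of equality. CHAC1 lies below the line, at -4.31 against a sum of -2.64, and the other members lie within 0.27 of it.

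Upstream of the members, none of the 4 eIF2 kinase genes was called lower in any comparison. These are mRNA values, and kinase activity and eIF2 phosphorylation were not measured. Of 8 kinase and activator genes, 2 were called higher and 0 lower with DZNep against PBS (median 0.03) and likewise with VC plus DZNep against PBS (median 0.16), where 13.1% and 19.7% of all genes were called in either direction. EIF2AK1, the haem-regulated kinase gene, was at 642 and 560 units with VC plus DZNep, 610 and 583 with DZNep, 440 and 456 with VC, and 440 and 442 with PBS. It rose by 0.43 ± 0.0933 on the log2 scale with DZNep (limma adjusted p = 0.0139) and 0.44 ± 0.0933 with VC plus DZNep against PBS (0.00888). GCN1, the gene of the ribosome-bound activator of the amino-acid sensor, rose by 0.34 ± 0.0991 (limma adjusted p = 0.0462) and 0.56 ± 0.0991 (0.00364). The amino-acid sensor EIF2AK4, the endoplasmic reticulum kinase EIF2AK3 and the RNA-activated kinase EIF2AK2 gave -0.24, -0.20 and -0.13 with DZNep and -0.19, 0.07 and -0.00 with VC plus DZNep against PBS, none past the threshold. With VC plus DZNep against VC the mitochondrial stress relay gene DELE1 was lower (-0.41 ± 0.118, limma adjusted p = 0.0425), and it was the 1 decrease in this list. The 2 increases there were those of EIF2AK1 (0.42 ± 0.0933, 0.0137) and GCN1 (0.34 ± 0.0991, 0.0454). In that comparison 8.14% of all genes were called lower and 15% in either direction.

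Of 8 genes for subunits of eIF2 and of its exchange factor eIF2B, 1 was lower with DZNep against PBS (median -0.07) and 2 with VC plus DZNep against PBS (median -0.08), where 6.63% and 10.2% of all genes were called lower. The gamma subunit gene EIF2S3 gave -0.52 ± 0.104 with DZNep (limma adjusted p = 0.00988) and -0.73 ± 0.104 with the combination (0.000976), and the beta subunit gene EIF2S2 fell with the combination (-0.60 ± 0.0977, 0.00237). Of 4 phosphatase genes, PPP1R15B, the constitutive paralog of PPP1R15A, was the 1 called lower with DZNep (-0.45 ± 0.101, limma adjusted p = 0.0178). It was at 338 and 380 units with VC plus DZNep, 340 and 315 with DZNep, 384 and 358 with VC, and 432 and 462 with PBS, and 0 of the 4 were called with VC plus DZNep against PBS.

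Among 11 measured bZIP partners and relatives, 2 were lower with DZNep and 5 with VC plus DZNep against PBS (medians -0.22 and -0.23), against 6.63% and 10.2% of all genes, and 0 were higher. The 4 largest decreases with the combination were those of JDP2, a repressor related to ATF3 (-1.48 ± 0.169), BATF3, an AP-1 factor (-1.16 ± 0.228), ATF5, the closest relative of ATF4 (-0.89 ± 0.0943), and CEBPD (-0.85 ± 0.16). ATF5 was at 310 and 274 units with VC plus DZNep, 424 and 402 with DZNep, 539 and 560 with VC, and 540 and 540 with PBS. It fell when VC was added to DZNep (-0.50 ± 0.0943, limma adjusted p = 0.0441), the 1 call of its list there, against 0.41% of all genes called lower.

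The paralogs of the members moved in part with them. Of 6, 4 were lower with DZNep and 3 with VC plus DZNep against PBS, where 6.63% and 10.2% of all genes were called lower. Of these paralogs, JDP2, ATF5 and PPP1R15B were also counted in the lists above. The largest decreases were those of JDP2 and of TRIB1, which fell by 0.87 ± 0.138 and 1.32 ± 0.138 on the log2 scale (limma adjusted p = 0.00325 and 0.000163). TRIB2 was at 66 and 58 units with VC plus DZNep, 52 and 59 with DZNep, 52 and 71 with VC, and 60 and 69 with PBS, and was not called in any comparison. CHAC2, the constitutive relative of CHAC1, had low and scattered values of 10 and 16, 16 and 20, 10 and 16, and 10 and 38 units in the same order of groups, and was not called either.

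Other known targets of ATF4 or CHOP, outside amino-acid enzymes and tRNA synthetases, were mostly lower in the groups with DZNep. Of 15 measured of 20 listed, 10 were lower and 1 higher with DZNep against PBS (median -0.66), 11 and 1 with VC plus DZNep against PBS (median -1.22), and 10 and 1 with VC plus DZNep against VC (median -1.01). Of all genes, 6.63%, 10.2% and 8.14% were called lower in these 3 comparisons. With DZNep against PBS, the 4 largest changes were those of VEGFA (-1.66 ± 0.102), ADM2 (-1.59 ± 0.249) and the proapoptotic genes BBC3 (-1.36 ± 0.271) and PMAIP1 (-1.09 ± 0.185). With the combination against PBS, the peptide hormone gene ADM2 gave a log2 fold change of -2.77 ± 0.249, the angiogenic factor gene VEGFA -2.08 ± 0.102, the sestrin gene SESN2, whose product restrains mTORC1, -1.95 ± 0.184 and the lipoprotein receptor gene VLDLR -1.80 ± 0.174. SESN2 was at 31 and 32 units with VC plus DZNep, 69 and 53 with DZNep, 130 and 139 with VC, and 144 and 108 with PBS. The 1 increase against PBS was that of the proapoptotic gene BCL2L11 (0.47 ± 0.137 with DZNep, limma adjusted p = 0.0486, and 0.47 ± 0.137 with the combination, 0.0365), and the 1 increase against VC was that of the oxidoreductase gene ERO1A (0.54, 0.0482), both named here after their values were seen.

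When VC was added to DZNep, 1 of these 15 was called lower (median -0.22), SLC7A11, against 0.41% of all genes. It encodes the cystine transporter subunit that supplies glutathione synthesis. It was at 105 and 124 units with VC plus DZNep, 186 and 203 with DZNep, 380 and 340 with VC, and 324 and 390 with PBS. The difference from DZNep was -0.76 ± 0.132 (limma adjusted p = 0.0316). Decreases larger in value that did not pass were those of ADM2 (-1.18 ± 0.249, 0.064), SESN2 (-0.92 ± 0.184, 0.055) and VLDLR (-0.78 ± 0.174, 0.0758). KLHL24, CCNG2 and ERO1A went the other way in value (0.08, 0.30 and 0.25), and 0 of the 15 were called higher.

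**Figure D5:**
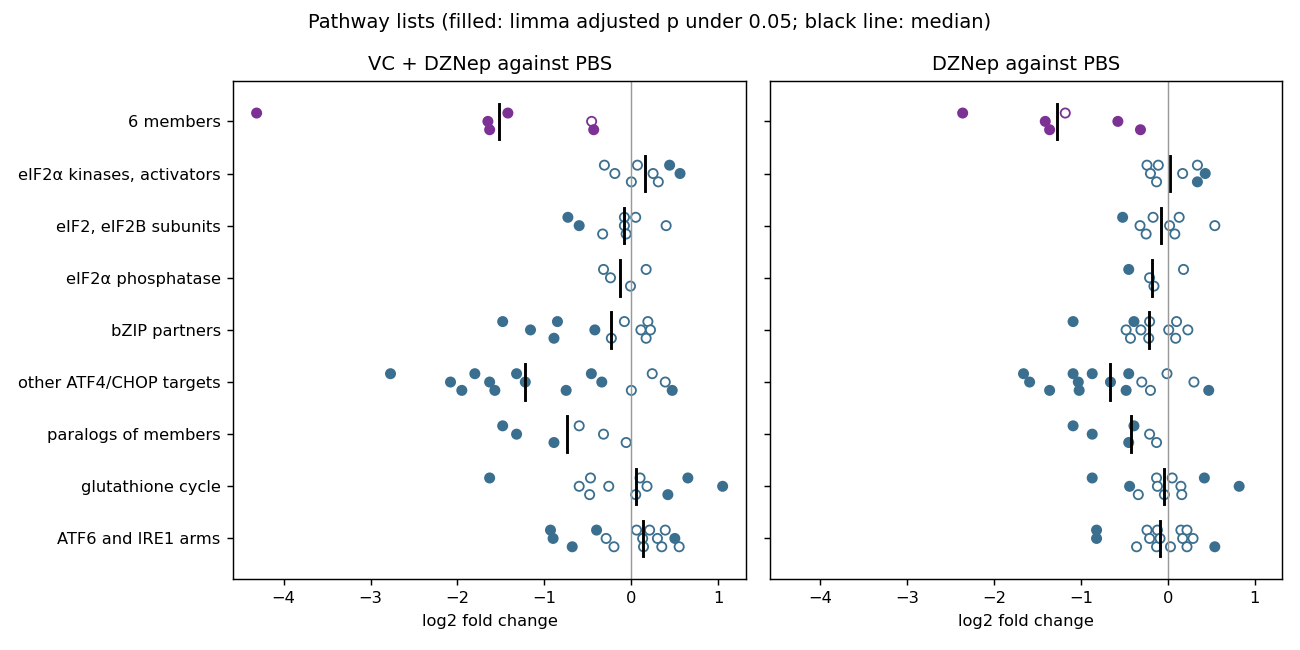
Log2 fold changes (horizontal axis) of the 6 members and of the genes of 8 pathway lists, for VC plus DZNep against PBS, left, and DZNep against PBS, right. Each point is a gene, filled points have a limma adjusted p under 0.05, and black lines are medians, which for the other ATF4 and CHOP targets are -1.22 and -0.66.

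Glutathione genes, the pathway on which CHAC1 acts, went both ways. Of 11 measured, 2 rose and 2 fell with DZNep against PBS (median -0.04), 3 rose and 1 fell with VC plus DZNep against PBS (median 0.05), and 2 rose and 3 fell with VC plus DZNep against VC (median 0.03). In these comparisons 13.1%, 19.7% and 15% of all genes were called in either direction. GCLC, the catalytic subunit gene of the first enzyme of glutathione synthesis, was at 224 and 224 units with VC plus DZNep, 196 and 187 with DZNep, 140 and 142 with VC, and 100 and 116 with PBS. It rose by 1.05 ± 0.117 with the combination (limma adjusted p = 0.000248), its regulatory subunit gene GCLM by 0.65 ± 0.169 (0.0237) and the aminopeptidase gene ANPEP by 0.42 ± 0.0896 (0.00904), while SLC7A11 fell by 1.63 ± 0.132 (2.87e-05). The glutathione reductase gene GSR fell with DZNep against PBS (-0.44 ± 0.113, limma adjusted p = 0.0293), and GGCT, a cytosolic gamma-glutamylcyclotransferase gene, fell with VC plus DZNep against VC (-0.63 ± 0.16, 0.0249).

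The ATF6 and IRE1 arms of the unfolded protein response, which run beside the eIF2 kinase of the endoplasmic reticulum, likewise had no common direction. Of 15 measured genes, 1 rose and 2 fell with DZNep against PBS (median -0.09), and 1 rose and 4 fell with VC plus DZNep against PBS (median 0.13). In these comparisons 13.1% and 19.7% of all genes were called in either direction. The largest change with the combination was that of MBTPS2, the gene of a protease that cleaves ATF6 (-0.93 ± 0.251, limma adjusted p = 0.0266). The ubiquitin-domain protein gene HERPUD1 fell by 0.82 ± 0.126 with DZNep (limma adjusted p = 0.00293) and 0.90 ± 0.126 with the combination (0.000908). EDEM1, of glycoprotein disposal, fell by 0.82 ± 0.108 and 0.68 ± 0.108, whereas the disulphide isomerase gene PDIA4 rose by 0.54 ± 0.124 and 0.50 ± 0.124. XBP1, the transcription factor gene whose message IRE1 splices, fell with the combination (-0.40 ± 0.0949, limma adjusted p = 0.0149), and is named here after its value was seen. The chaperone gene HSPA5, the usual mark of this response, was at 1032 and 1074 units with VC plus DZNep, 1057 and 1056 with DZNep, 815 and 784 with VC, and 962 and 943 with PBS. It was called in 1 comparison, VC plus DZNep against VC (0.40 ± 0.0752, limma adjusted p = 0.00636).

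The members resembled each other across the 8 libraries, with Pearson's r of log2(value + 1) from 0.76, for PPP1R15A with CHAC1, to 0.98, for ATF4 with TRIB3, over 15 pairs. These libraries fall into 4 treatment groups, so r describes mainly the group levels and is given without a test. Among 347 genes with a group mean of at least 50 and group means spanning at least 1 on the log2 scale, the 3 most like CHAC1 were CLIC4 (r = 0.989), SETD7 (0.986) and GPT2 (0.983). GPT2 was at 89 and 70 units with VC plus DZNep, 117 and 125 with DZNep, 230 and 224 with VC, and 274 and 230 with PBS. Those most like TRIB3 were WARS (r = 0.994), PKD1 (0.991) and GMPS (0.991), and those most like ATF4 were CSF3R (0.992), SNTB1 (0.990) and PLXNB2 (0.990). The closest for DDIT3 were FADS1 (r = 0.984), EIF3A (0.984) and TMC8 (0.977), for ATF3 BCAN (0.978), IARS (0.977) and DDIT4 (0.970), and for PPP1R15A SREBF2 (0.944), SH3BP2 (0.941) and CYTH2 (0.938). DDIT4, an mTORC1 inhibitor gene, is also a listed ATF4 target.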

How the data were processed

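RNA was sequenced from 8 HL60 libraries, 2 per group, made with an Illumina TruSeq kit, per the labels' protocols. Per the submitters' processing notes, the tools were DESeq 1.18.1, HTSeq 0.6.0, SAMtools 1.3.1 and HISAT2 2.0.4, and the builds GRCh38 and hg38. EDASeq is named by the deposited sheet. The deposited values were treated as a score and not as read counts, because all 8 libraries hold the same sorted whole numbers. A shift shared by most genes would be invisible, and the settings and gene filter are not given in the sources used here.

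Genes with a mean of at least 10 were kept, and log2(value + 1) was fitted with limma 3.58.1 in R 4.3.3, with 1 mean per group, all 8 libraries, an intensity trend and 4 residual and 6.46 prior degrees of freedom. Tests were two-sided, with Benjamini-Hochberg adjustment over 9513 genes in each of 6 comparisons and a threshold of 0.05. Fold changes are on the log2(value + 1) scale, which understates low genes, with limma standard errors (SE), and a library's absence leaves a group with 1 library assumed to vary like the others. Gene positions came from GENCODE 29 and promoters from RefSeq (GRCh38.p14), matched by symbol for all 6 members. Of 82 distinct listed pathway genes, 73 were in the table, 1 matched by Ensembl identifier. The rule named all members, all eIF2 kinases and paralogs, up to 4 genes past the threshold per list and comparison with the largest change, and the 3 genes with the highest Pearson r for each member. Members and lists were chosen with earlier results of these data known.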

Additional observations from a re-analysis of the deposited data

How the results depend on the processing

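Under 18 alternatives, of which 8 left out 1 library each and 1 was chosen after seeing the data, TRIB3 and DDIT3 were called in every comparison of a group with DZNep against one without it, and CHAC1 in all of them for VC plus DZNep against PBS or VC. Counts of genes and of members called that moved by more than 1.5 times were as follows. Without the intensity trend, 739 genes and 2 members were called with DZNep against PBS, 2 genes for VC plus DZNep against DZNep, 928 against VC and 0 for the interaction. In the 4 libraries alone, 454 genes and 3 members were called with DZNep against PBS, 894 genes with VC plus DZNep against PBS and 4 against DZNep. Robust empirical Bayes gave 136 genes and 1 member, CHAC1, for VC plus DZNep against DZNep and 0 genes for the interaction. Median-of-ratios scaling gave 1 gene for VC against PBS and 107 for VC plus DZNep against DZNep, against 0 and 64 as reported. For the interaction, 1 gene was called with a mean of at least 50 and 1 with values under 10 set to 10, against 2. Leaving out each library in turn gave 439 to 1030 genes and 2 to 4 members with DZNep against PBS, 0 to 1 genes and 0 members with VC against PBS, 869 to 1633 genes and 4 to 6 members with VC plus DZNep against PBS, 4 to 70 genes and 0 to 1 members against DZNep, 501 to 1532 genes and 3 to 6 members against VC, and 0 to 2 genes and 0 members for the interaction. Signs changed only for members that were not called, and leaving out each library gave log2 fold changes that crossed 0 in these cases. With VC against PBS, DDIT3 ranged from -0.02 to 0.33, ATF3 from -0.55 to 0.19, TRIB3 from -0.27 to 0.13 and PPP1R15A from -0.09 to 0.28. With VC plus DZNep against DZNep, DDIT3 ranged from -0.20 to 0.18. For the interaction, DDIT3 ranged from -0.35 to 0.02, ATF3 from -0.64 to 0.10 and PPP1R15A from -0.16 to 0.21, and ATF3 was 0.06 with values under 10 set to 10. With fewer libraries the residual degrees of freedom fall by construction, and for the other settings the cause was not tested. With a mean of at least 50, ATF3 was not tested. Over the genes tested, libraries of the same number did not deviate together (r from -0.0467 to 0.091 over 6 pairs of groups). A shared culture or batch that touched few genes would not show in this r. With a replicate block 1367 genes and 5 members were called with DZNep against PBS, against 1242 and 5. Depth is unknown, and steps between low values limit CHAC1 and ATF3.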
